A study of Rattus norvegicus with 8 samples.

Results

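Sertoli cells, the somatic cells that enclose developing germ cells in the seminiferous tubule, secrete growth factors, carrier proteins and protease inhibitors into the tubule and onto its basement membrane. A set of 10 such products was followed here: the growth factors Kitlg, Dhh, Igf1, Fgf2 and Bmp4, the carrier proteins Shbg, Igfbp3 and Psap, the chaperone Clu and the protease inhibitor Cst3. They were chosen by name, and each was read from the array row that carries its symbol and no other. Of the 10, 9 had such a row, out of 17582 genes with a row of their own on the array. Fgf2 had none and is described from rows it shares with another gene.

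Rat Sertoli cells were isolated from testes, grown in medium with 10% fetal bovine serum and then kept for 24 hours in 1 of 4 ways. The cells had 24 hours in primary culture beforehand. Apart from the control group, 1 group received 0.1 µM of a compound labelled NP, 1 group 0.1 mM of a compound labelled MBP, and 1 group both compounds at those doses. What NP and MBP stand for is not spelled out, and neither strain, age nor the vehicle given to the control is stated. Each group was read on 1 gene-level array, so a difference between 2 arrays has no replicate check, and nothing in the labels says how many cultures or animals a sample holds.

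These products reach germ cells by several routes. Kitlg encodes the ligand of the receptor tyrosine kinase KIT, which differentiating spermatogonia carry. Dhh signals through patched receptors, in the mouse to Leydig and peritubular cells, and the IGF, FGF and BMP ligands act through receptors on spermatogonia and on somatic cells of the tubule. Shbg encodes androgen-binding protein, the classical secretory product by which rat Sertoli cells are recognised. Clusterin (Clu) and prosaposin (Psap) are the sulfated glycoproteins that Sertoli cells in culture release in quantity.

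Values are log2 signals, normalized across arrays by the authors, and a difference of 1 stands for 2-fold. Levels of different genes are not compared, since each row has its own probes, and every difference is of 1 gene between arrays. The 4 arrays cross NP with MBP, so each compound can be read in 2 pairs that have no array in common. For NP these are the NP array against control and the NP+MBP array against MBP. For MBP they are the MBP array against control and the NP+MBP array against NP. Errors are the SD of those pairs (n = 2 pairs), and this SD is the same for both compounds of a gene by construction. All 9 measured genes lay above the signal filter, a mean log2 signal of 7.50. So did 9998 of 17582 genes with a row of their own, and 13798 of 27596 probe sets that are no controls. The 3 comparisons with control share the control array, and differences from it had a wider spread over all sets (SD 0.105 to 0.129) than NP+MBP minus NP (0.078) or NP+MBP minus MBP (0.064).

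**Figure D1:**
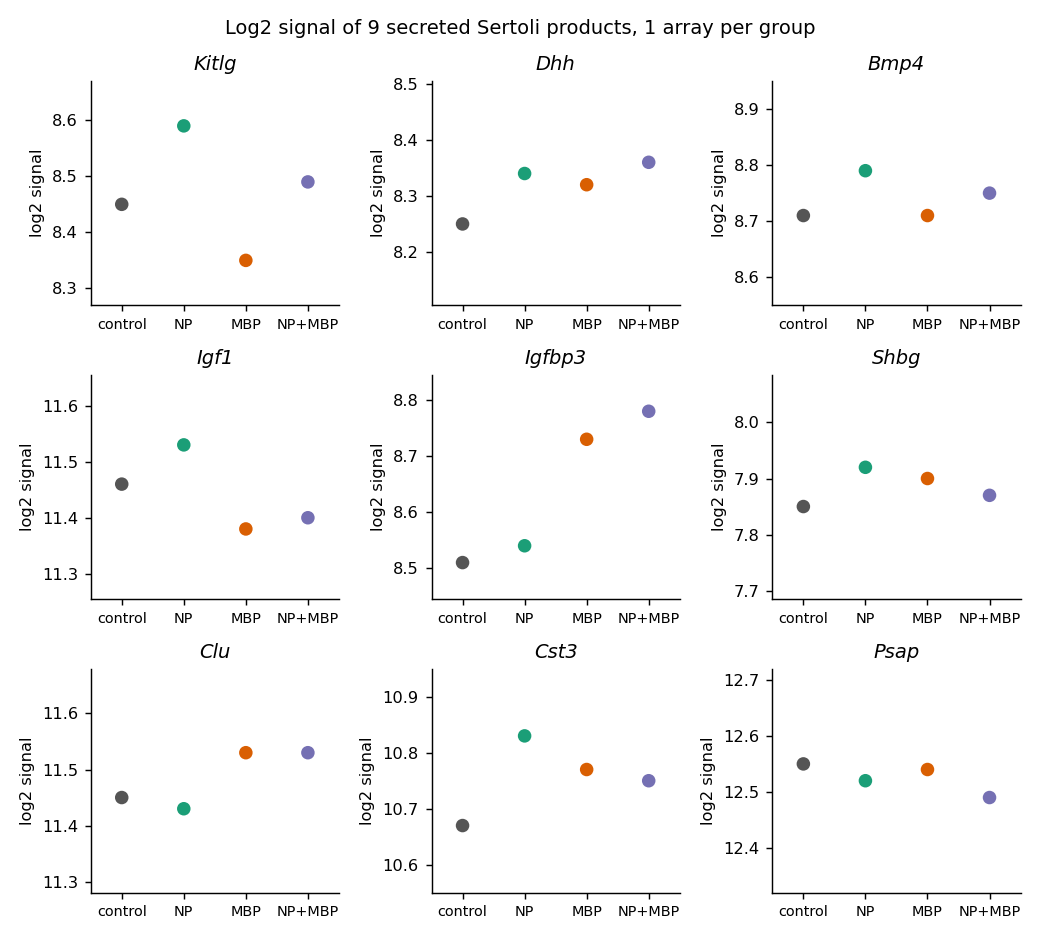
Log2 signal (vertical axis, a span of 0.4 in every panel) of 9 secreted products on the control, NP, MBP and NP+MBP arrays, 1 point per array and no error bar. Igfbp3 sits higher on both arrays with MBP (8.73 and 8.78) than on both without it (8.51 and 8.54), and Kitlg is highest with NP alone (8.59) and lowest with MBP alone (8.35).

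Igfbp3, which encodes the main carrier protein of insulin-like growth factors, had the widest range of the 9 genes, 0.26. Its log2 signal was 8.51 in control, 8.54 after NP, 8.73 after MBP and 8.78 after both compounds. Both arrays with MBP lay above both arrays without it. The MBP difference was 0.21 against control and 0.24 in the pair of arrays that both had NP, a mean of 0.23 ± 0.02 (SD, n = 2 pairs) or 1.17-fold. Limma's additive model was fitted over all 13798 probe sets. Its error combines each set's departure from additivity (1 degree of freedom) with a prior drawn from all sets (3.254 degrees of freedom). In that model the MBP term of Igfbp3 was 0.23 with a standard error of 0.03. Its 95% interval was 0.14 to 0.31 and its adjusted p 0.196. The difference thus did not pass the test across all sets. The NP term was 0.04, from -0.05 to 0.12.

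Igf1, which encodes the growth factor that Igfbp3 carries, lay on the other side. Its log2 signal was 11.46 in control, 11.53 after NP, 11.38 after MBP and 11.40 after both. Both arrays with MBP were lower than both without it. The MBP differences were -0.07 and -0.13, a mean of -0.10 ± 0.04 (SD, n = 2 pairs), and the adjusted p in limma's additive model was 0.302. NP gave 0.07 without MBP and 0.01 with it.

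Kitlg had the next widest range, 0.23, and was the 1 measured gene with differences of over 0.09 in both pairs of both compounds. Its log2 signal was 8.45 in control, 8.59 after NP, 8.35 after MBP and 8.49 after both. Within each state of the other compound, the array with NP was higher and the array with MBP lower. NP gave 0.14 in each pair, a mean of 0.14 ± 0.00 (SD, n = 2 pairs) and MBP gave -0.09 in each. The departure from additivity was -0.001, so the array with both compounds read 0.05 above control. In limma's additive model the adjusted p was 0.411 for NP and 0.297 for MBP. The doses of NP and MBP differ, and the difference between the compounds was not tested.

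Promoter sequences are shown for these 3 genes, whose mean MBP differences over both pairs were the widest of the 9, to give the letters around the start sites that the RefSeq annotation of build GRCr8 assigns to them. Each run holds 250 bases before the start and 50 after it, 5′ to 3′ on the gene's strand. Igfbp3 lies at chr14:86277895-86278194 (minus strand), Kitlg at chr7:36782410-36782709 (plus strand) and Igf1 at chr7:24172282-24172581 (plus strand). Capitals mark exact matches, on either strand, to 5 motifs. The TATA box was searched as TATAAA, the CAAT box that general factors bind as CCAAT, and the GC box of SP1-like factors as GGGCGG. The E-box of basic helix-loop-helix factors was searched as CACGTG, and the core of the cyclic AMP response element as TGACG.
Igfbp3: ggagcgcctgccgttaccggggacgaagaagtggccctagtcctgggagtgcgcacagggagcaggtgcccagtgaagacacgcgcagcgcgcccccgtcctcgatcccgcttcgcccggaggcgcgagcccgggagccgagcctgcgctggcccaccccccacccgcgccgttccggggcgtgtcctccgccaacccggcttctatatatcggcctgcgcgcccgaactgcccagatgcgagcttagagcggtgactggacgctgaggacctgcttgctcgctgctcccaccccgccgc
Kitlg: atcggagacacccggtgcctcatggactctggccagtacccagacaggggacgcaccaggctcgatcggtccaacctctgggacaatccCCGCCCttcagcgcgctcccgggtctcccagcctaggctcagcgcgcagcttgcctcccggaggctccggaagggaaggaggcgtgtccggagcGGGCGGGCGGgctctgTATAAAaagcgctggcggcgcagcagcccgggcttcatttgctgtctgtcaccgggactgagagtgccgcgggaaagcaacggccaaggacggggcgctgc
Igf1: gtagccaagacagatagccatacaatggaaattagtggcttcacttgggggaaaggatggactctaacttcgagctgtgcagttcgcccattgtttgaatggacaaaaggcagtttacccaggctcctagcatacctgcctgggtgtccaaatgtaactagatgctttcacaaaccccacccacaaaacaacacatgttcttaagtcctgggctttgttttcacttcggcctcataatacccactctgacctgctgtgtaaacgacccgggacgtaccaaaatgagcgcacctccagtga

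The Kitlg run holds a TATA box whose first base lies 51 bases before the start and 3 GC boxes, 161, 67 and 63 bases before it, the latter pair overlapping. Of 33469 rat promoters of the same length, 14.2% hold the TATA box as written here, 33.1% the GC box, 37.5% the CAAT box, 6.42% the E-box and 21.2% the cyclic AMP core. The Igfbp3 and Igf1 runs hold none of the 5 motifs, which says only that these letters are not in these windows. Igfbp3 has a G+C content of 71.7% with 36 CpG dinucleotides and Kitlg 68.0% with 28, against 48.3% and 7 for Igf1 and medians of 51.7% and 7 over all promoters. Of the 10 listed genes, 8 matched the promoter table, and 6 of these 8 lay above the median G+C content.

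Dhh, the hedgehog ligand of Sertoli cells, was lowest on the control array. Its log2 signal was 8.25 in control, 8.34 after NP, 8.32 after MBP and 8.36 after both. NP differed by 0.06 ± 0.04 over its pairs and MBP by 0.05 ± 0.04 (SD, n = 2 pairs each), and against NP alone the array with both compounds was 0.02 higher. Bmp4, a ligand that acts on spermatogonia in the mouse, spanned 0.08. It read 8.71 in control, 8.79 after NP, 8.71 after MBP and 8.75 after both. Both arrays with NP were higher than both without it, by 0.05 ± 0.03 over the pairs, and MBP stood at -0.02 ± 0.03. The adjusted p in limma's additive model was 0.510 and 0.555 for NP and 0.565 and 0.786 for MBP, for Dhh and Bmp4 in turn.

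Fgf2, a growth factor for spermatogonial stem cells, could not be read apart from Nudt6, the gene transcribed from the opposite strand of the same locus. Both rows that name Fgf2 name Nudt6 too. The RefSeq annotation of build GRCr8 places Fgf2 on the plus strand, and which row reads which gene was not tested. The row on the plus strand of chromosome 2, from 123893314 to 123947684, read 9.85 in control, 9.93 after NP, 9.86 after MBP and 9.85 after both. The row on the minus strand, from 123947305 to 123962659, read 8.23, 8.29, 8.27 and 8.27 in the same order, and the spans share 380 bases. Both rows were highest on the NP array, by 0.08 and 0.06 over control, and NP+MBP minus MBP was 0.00 in each. These values belong to the locus and are left out of the counts below.

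Clu encodes clusterin, a secreted chaperone. It read 11.45 in control, 11.43 after NP, 11.53 after MBP and 11.53 after both. Both arrays with MBP were higher, by 0.09 ± 0.01 over the pairs (SD, n = 2 pairs), with an interval of 0.01 to 0.17 and an adjusted p of 0.312 in limma's additive model. The NP differences of Clu were -0.02 and 0.00. Psap encodes prosaposin, the precursor of the saposins that activate lysosomal sphingolipid hydrolases. It read 12.55 in control, 12.52 after NP, 12.54 after MBP and 12.49 after both, the narrowest range of the 9 genes, 0.06. It was lower with NP by 0.04 ± 0.01 and with MBP by 0.02 ± 0.01 on the log2 scale, with adjusted p of 0.630 and 0.781.

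Cst3 encodes cystatin C, an inhibitor of cysteine proteases. It read 10.67 in control, 10.83 after NP, 10.77 after MBP and 10.75 after both. The control array was lowest, and the other 3 lay within 0.08 of each other. NP minus control was 0.17, but NP+MBP minus MBP was -0.01, and MBP minus control was 0.10, but NP+MBP minus NP was -0.08. The departure from additivity, -0.18, was the widest of the 9 genes. Shbg, the gene of androgen-binding protein, showed the same order at a smaller size. It read 7.85 in control, 7.92 after NP, 7.90 after MBP and 7.87 after both, with a departure of -0.09. The means over pairs with NP were 0.08 ± 0.13 for Cst3 and 0.02 ± 0.07 for Shbg. With MBP they were 0.01 ± 0.13 and 0.00 ± 0.07. Both genes change sign between the pairs of each compound, so each mean lies within its SD by construction.

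**Figure D2:**
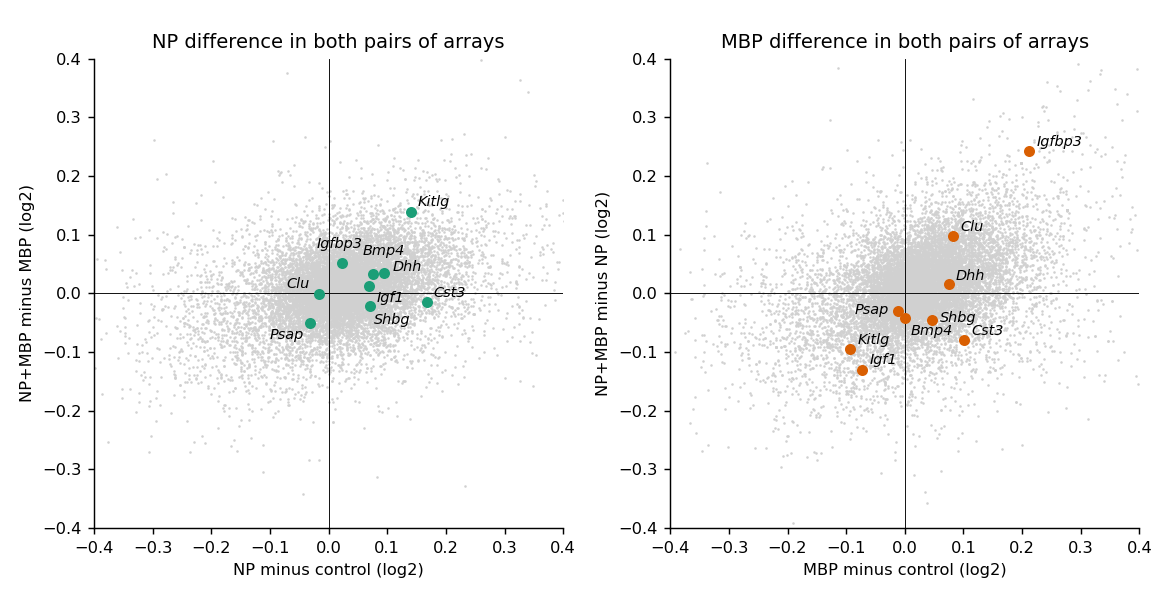
Log2 difference of NP (left) and MBP (right) in the pair with the control array (horizontal axis) and in the pair without it (vertical axis), for 9 secreted products (coloured, labelled) and 13798 probe sets (grey, those past 0.4 not shown). Igfbp3 lies at 0.21 and 0.24 for MBP and Kitlg at 0.14 and 0.14 for NP, while Cst3 changes sign between the pairs of both compounds.

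The 9 measured genes were then counted in each comparison. NP was higher than control in 7 of 9 with a median of 0.071, where 62.4% of all 13798 probe sets were higher, with a median of 0.022. MBP was higher than control in 6 of 9 with a median of 0.047, beside 64.1% and 0.025 over all sets. With both compounds 7 of 9 were higher than control with a median of 0.045, beside 64.9% and 0.033. In each comparison with control most sets were higher too. Against NP alone, adding MBP left 3 of 9 higher and a median of -0.043, where 56.4% of all sets were higher with a median of 0.009. Against MBP alone, adding NP left 5 of 9 higher and a median of 0.013, beside 55.7% and 0.007.

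Against the arrays' own background, 45 antigenomic probe sets that match no gene, only Clu, Igf1, Cst3 and Psap lay above the 95th percentile on each array (9.22 to 9.49). Shbg, Kitlg, Dhh, Bmp4 and Igfbp3 lay above the antigenomic medians (5.11 to 5.37) but below that percentile. Over all sets that are no controls, the 75th percentile of mean log2 signal was 9.17, so most sets did not pass it either.

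Differences of 1.2-fold or more were rare. Igfbp3 was the 1 gene to reach it, in NP+MBP minus control, at 0.264 against a threshold of 0.263 on the log2 scale. In that comparison 3.49% of all sets were as much higher and 2.12% as much lower. No measured gene reached 1.2-fold in the other 4 comparisons. The background there was 1.95% higher and 1.09% lower for NP minus control and 1.88% and 1.08% for MBP minus control. It was 0.616% and 0.217% for NP+MBP minus NP, and 0.21% and 0.087% for NP+MBP minus MBP.

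The sign of each gene was then compared between pairs. For NP, 5 of 9 genes were higher in both pairs (Kitlg, Dhh, Igf1, Bmp4 and Igfbp3), 2 lower (Clu and Psap) and 2 opposite, where 39.7% of all sets were higher and 21.5% lower in both. For MBP, 3 were higher in both (Igfbp3, Clu and Dhh), 3 lower (Igf1, Kitlg and Psap) and 3 opposite, beside 42.1% and 21.5%. Limma's additive model called 0 of 9 genes for either compound, as it called 0% of all sets for NP and 0% for MBP, at an adjusted p under 0.05. The smallest adjusted p was 0.411 for NP (Kitlg) and 0.196 for MBP (Igfbp3) among the 9 genes, and 0.203 and 0.081 over all sets. Before adjustment, 1 of 9 passed 0.05 for NP (Kitlg) and 4 of 9 for MBP (Igfbp3, Kitlg, Igf1 and Clu), beside 11.8% and 15.3% of all sets.

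**Figure D3:**
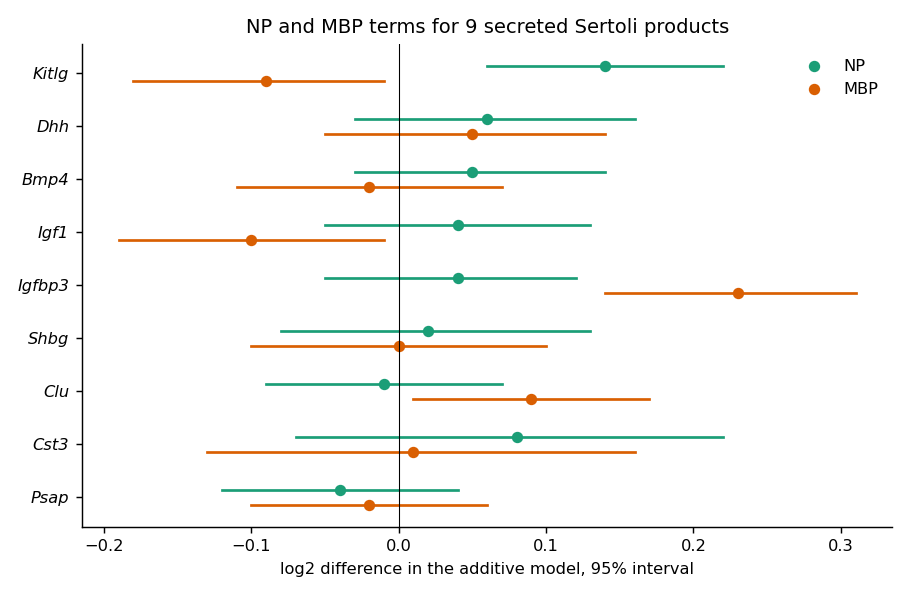
Estimates (points) and 95% intervals (lines) of the NP and MBP terms of limma's additive model for 9 secreted products, in log2 units (horizontal axis), from 4 arrays and before adjustment for the number of sets tested. The interval for MBP lies above 0 for Igfbp3 (0.14 to 0.31) and Clu (0.01 to 0.17) and below it for Igf1 (-0.19 to -0.01) and Kitlg (-0.18 to -0.01), and no adjusted p was under 0.05.

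The cells' identity was read from marker genes. Of 12 measured Sertoli cell markers, 11 lay above the filter, among them Sox9, Wt1, Gata4 and Fshr, and Amh lay below it. Markers of peritubular myoid cells (4 of 4) and fibroblasts (5 of 5) were above it too, as were 2 of 8 germ cell, 2 of 5 Leydig cell, 1 of 3 endothelial and 0 of 6 macrophage markers. Of all genes with a row of their own, 9998 of 17582 were above it. The filter lies below the 95th percentile of the antigenomic sets, which 6 of 12 Sertoli markers passed on every array (Sox9, Wt1, Gata4, Fshr, Cldn11 and Vim). All 4 myoid and all 5 fibroblast markers passed it, as did Star alone of 5 Leydig markers and 0 of the germ cell, endothelial and macrophage markers. In cultures that hold several cell types, fewer cells of a type and less RNA per cell cannot be told apart. On the linear scale the summed signal of the Sertoli markers was 20029 in control, 20476 after NP, 19910 after MBP and 19881 after both. That sum rests mostly on Vim and Fshr, at log2 13.15 and 11.59 in control, and says little of the other Sertoli markers. The summed signal of the myoid markers was 24272 to 24550 and that of the fibroblast markers 21914 to 22129. The germ cell markers summed to 1247 and 1197 on the arrays without MBP and to 1342 and 1344 on those with it. The germ cell marker Dazl, below the filter, read 6.56, 6.85, 7.49 and 7.63 in the order control, NP, MBP and both. Over the MBP pairs Dazl stood at 0.85 ± 0.10 and Gfra1 at 0.19 ± 0.07. The other germ cell markers lay between -0.04 (Tnp1) and 0.08 (Kit). The Sertoli tight junction gene Cldn11 read 10.04, 10.02, 9.37 and 9.46 in the same order, or -0.62 ± 0.07 over the MBP pairs. The other Sertoli markers lay between -0.13 (Amh and Fshr) and 0.12 (Wt1) over those pairs. Igfbp3 and Clu were higher on both arrays with MBP than on both without it, as Dazl was, and Igf1 was lower, as Cldn11 was. Dazl and Cldn11 had the widest MBP differences of their lists and do not stand for the other markers. The part of cell content in the values of Igfbp3, Clu and Igf1 was not tested.

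Genes that act with the secreted products were taken from 10 lists. Of 143 listed genes above the filter, limma's additive model called 0 for NP and 0 for MBP, with smallest adjusted p of 0.411 and 0.216, and none reached 1.2-fold in the same direction in both pairs of a compound. Over all sets, 0.174% were that much higher and 0.029% lower in both pairs for NP, and 0.413% and 0.0507% for MBP, so a count of 0 does not set the lists apart. Around KIT ligand, 9 of 12 genes were higher with MBP than control, with a median of 0.085, beside 64.1% and 0.025 over all sets. Against NP alone, adding MBP left 8 of 12 higher and a median of 0.024, beside 56.4% and 0.009. Adam17, a protease that sheds membrane proteins, stood at 0.11 ± 0.03 over the MBP pairs and Mmp9, which releases soluble KIT ligand in the mouse bone marrow, at 0.20 ± 0.08. Lyn, a kinase downstream of KIT, was at 0.17 ± 0.12 with NP. In control Mmp9 and Lyn read 7.78 and 8.27, below the antigenomic 95th percentile of 9.49. Kit itself lay below the filter. In the hedgehog pathway, whose median for MBP minus control was 0.011 over 9 genes, the target gene and effector Gli1 was at -0.09 ± 0.00 with MBP and Gli2 at -0.06 ± 0.02. Sufu, an inhibitor of the pathway, was at 0.11 ± 0.02 and Disp1, which releases hedgehog ligands from the cell, at 0.09 ± 0.00. The latter 2 read alike with NP, at 0.10 ± 0.02 and 0.09 ± 0.00. The other listed hedgehog genes above the filter lay between -0.06 (Cdon) and 0.04 (Gli3) over the MBP pairs, with Ptch1 at 0.03 ± 0.02. Gli1, Gli2, Sufu and Disp1 read 8.51, 8.24, 8.12 and 8.84 in control, below the antigenomic 95th percentile of 9.49.

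In the IGF system, 8 of 15 genes were higher with MBP than control with a median of 0.003, beside 64.1% and 0.025 over all sets. Igfbp2, another IGF carrier, was at -0.18 ± 0.08 over the MBP pairs, opposite in sign to Igfbp3. Stc2, an inhibitor of IGFBP cleavage, was at -0.12 ± 0.03, Igfbp4 at 0.08 ± 0.05 and the insulin receptor Insr at 0.15 ± 0.06. Among FGF genes (8 of 18 higher, median -0.010), Sdc4, a heparan sulfate co-receptor, was at 0.20 ± 0.02, with the smallest adjusted p of the lists for MBP, 0.216. Fgf10 was at -0.16 ± 0.06, Etv5, a transcription factor that FGF signalling induces, at 0.15 ± 0.11, and Fgf8 at -0.16 ± 0.03 with NP. Insr, Fgf10, Etv5 and Fgf8 read 8.76, 8.55, 8.28 and 7.97 in control, below the antigenomic 95th percentile of 9.49. Among BMP genes 14 of 22 were higher, near the share of all sets, with a median of 0.054. Against NP alone, adding MBP left 15 of 22 higher and a median of 0.024, beside 56.4% and 0.009. Bmp7 was at 0.17 ± 0.00, the receptor Bmpr1b at 0.14 ± 0.08, the BMP antagonist Grem1 at -0.18 ± 0.01 and the activin antagonist Fst at -0.12 ± 0.05. In control they read 7.55, 7.69, 7.78 and 9.01 in turn, below the antigenomic 95th percentile of 9.49.

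Lysosomal genes around prosaposin numbered 15, of which 12 were higher with NP (median 0.044) and 11 with MBP (0.033) than control, beside 62.4% (0.022) and 64.1% (0.025) of all sets. In the pairs without the control array, 11 were higher with NP (0.023) and 9 with MBP (0.01), beside 55.7% (0.007) and 56.4% (0.009). Asah1, the acid ceramidase, was at 0.08 ± 0.01 over the NP pairs, and the sialidase Neu1 at 0.10 ± 0.01 over the MBP pairs. Of 9 genes around cystatin C, 7 were higher with MBP than control with a median of 0.016, beside 64.1% and 0.025 over all sets. Against NP alone, adding MBP left 6 of 9 higher and a median of 0.032, beside 56.4% and 0.009. Ctsc, a cathepsin, was at 0.18 ± 0.02 with MBP and 0.10 ± 0.02 with NP, while Ctsb and Ctsd were at -0.02 ± 0.02 and -0.03 ± 0.01 with MBP. Of 4 genes of androgen response, 1 was higher with MBP than control, beside 64.1% of all sets. In NP+MBP minus NP it was 1 of 4 too, beside 56.4%. The FSH receptor Fshr was at -0.13 ± 0.17 over the MBP pairs, but at 0.079 when all rows with its symbol were averaged. Partners of clusterin had a median of -0.011 over 6 genes for MBP minus control. The lipoprotein receptor Vldlr stood at -0.05 ± 0.02 over the MBP pairs.

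Among 33 other secreted Sertoli products, 10 were higher with MBP than control and 23 lower, with a median of -0.033. Over all sets 64.1% were higher, with a median of 0.025. Against NP alone, adding MBP left 12 higher and 21 lower with a median of -0.021, beside 56.4% higher and 0.009 over all sets. Cp, which encodes the copper carrier ceruloplasmin, was at 0.31 ± 0.17 over the MBP pairs and Plat, the tissue plasminogen activator, at 0.17 ± 0.03. The growth factor pleiotrophin (Ptn) was at -0.21 ± 0.08 and Wnt4 at -0.15 ± 0.07. Their adjusted p in limma's additive model was 0.254, 0.238, 0.238 and 0.282 in turn. Ptn read 8.64 in control, below the antigenomic 95th percentile of 9.49. With NP against control the list stood at 19 of 33 higher with a median of 0.006, beside 62.4% and 0.022 over all sets.

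**Figure D4:**
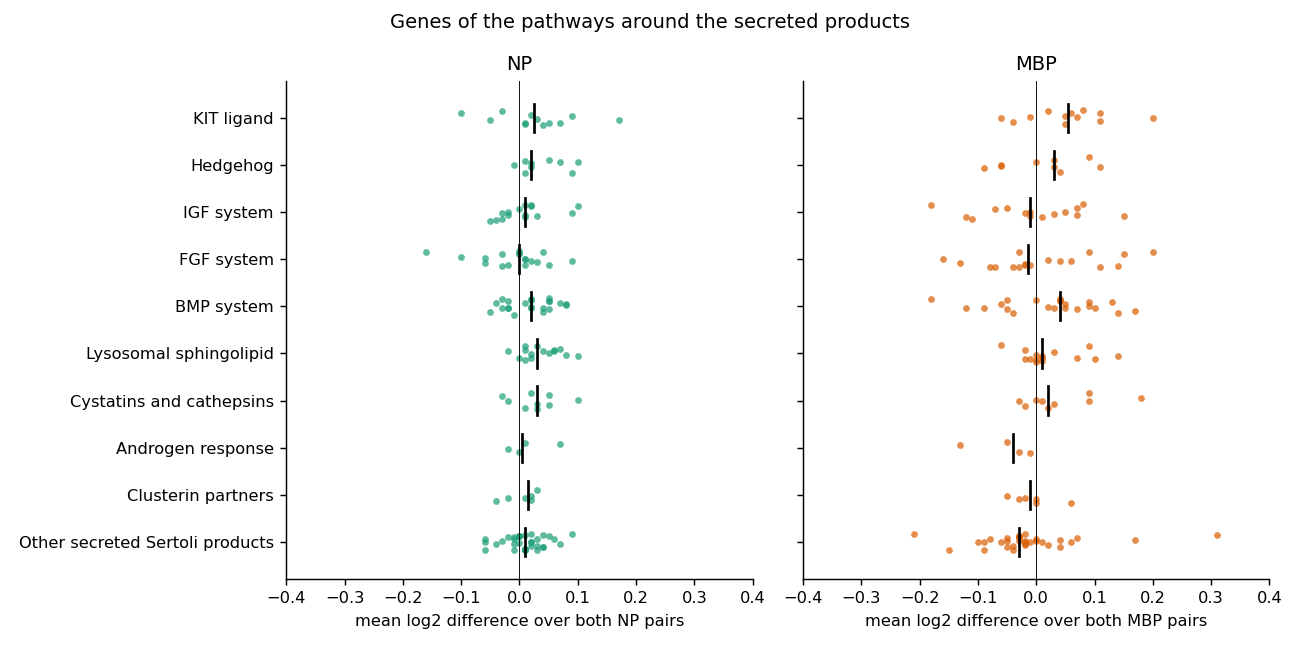
Mean log2 difference over both NP pairs (left) and both MBP pairs (right) of listed genes above the signal filter (points, spread vertically for sight) in 10 lists around the secreted products, with the median of each list as a black bar. For MBP, Cp lies farthest to the right at 0.31 and Ptn farthest to the left at -0.21, both among the other secreted products.

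The genes nearest in pattern to the 2 widest-ranging members were sought among 9997 named genes above the filter, by the Euclidean distance between 4 log2 signals after centring each gene. Nearest to Igfbp3 were Cnp (distance 0.018), Gucy1a3 (0.025) and Nt5e (0.029). Nt5e, a surface nucleotidase, read 9.88 in control, 9.89 after NP, 10.12 after MBP and 10.15 after both. Among the nearest to Kitlg were Mboat1 (0.033) and Il15 (0.038). Il15, a cytokine, read 8.73, 8.90, 8.68 and 8.77 in the same order. With 4 arrays such likeness is only a description.

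Positions of the measured genes are those of the deposited workbook, and for all 9 they overlap the RGSC3.4 position in the row's own transcript description. Kitlg spans 37714157 to 37795726, Igf1 24531690 to 24605603 and Dhh 137666987 to 137672451 on chromosome 7. Clu spans 45365779 to 45405323 and Bmp4 22283152 to 22290018 on chromosome 15. Igfbp3 lies on chromosome 14 from 87959153 to 87967171, Shbg on chromosome 10 from 56432469 to 56449758, Cst3 on chromosome 3 from 137650900 to 137654776 and Psap on chromosome 20 from 27595048 to 27621907. Each span is that of the gene's probe set over its transcript, and each of the 9 genes has 1 such row. The annotation gives 7 of the 9 an extracellular cellular component term, beside 9.0% of 13182 genes with a cellular component term of any kind. Clu and Dhh are the 2 without an extracellular term. The genes were listed as secreted products, so a high share follows from that choice and tests nothing.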

How the data were processed

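Total RNA of rat Sertoli cell cultures was read on 4 gene-level Affymetrix arrays, 1 per group, with groups taken from the sample titles. The 4 microRNA arrays of the series were not used. The log2 signals were made by the authors with RMA at the gene level, as the file headers state, whereas the submitters' processing notes name MAS5. The values run from 1.94 to 13.46, and RMA was taken as the method. A deposited workbook, whose column initials match the groups, repeats them, with 0 cells differing by over 1e-09. No detection calls were used, and precision is limited by there being 4 arrays.

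Of 27596 probe sets that are no controls, 18771 carry 1 symbol, 2013 several and 6812 none. The row with the highest mean stood for a gene. Sets at or above the median mean signal, 7.50, were tested with limma 3.58.1 in R 4.3.3, with the terms NP and MBP, 1 residual degree of freedom, eBayes and Benjamini-Hochberg adjustment over 13798 sets. An interaction between the compounds would enter its error, and p-values measure the spread of these arrays alone. The model was tested on simulated data. A fold of 1.2 was a description.

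The genes, the lists and the rule for naming genes (all 10 listed genes; per list the 2 highest and 2 lowest means over pairs; the 3 nearest patterns of the 2 widest-ranging genes) were chosen with earlier results of these data known. Some genes that the rule names are given only in the counts or are not reported here. Older array symbols were matched through RefSeq synonyms. Alternatives were median centring, quantile and cyclic loess normalization, no filter or one at the 75th percentile, a prior that follows signal, folds of 1.1 and 1.5, the workbook values and the mean of all rows. Python 3.11.15, numpy 2.4.6, pandas 2.3.3 and matplotlib 3.10.9 were used.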

Additional observations from a re-analysis of the deposited data

Results flagged for a closer look

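Of 18 compound differences of the 9 genes, 5 had opposite signs without and with the other compound, and the size of the change between the pairs was not tested. Over all sets, 39.7% were higher and 21.5% lower in both NP pairs, and 42.1% and 21.5% in both MBP pairs. Opposite signs were thus no rarer over all sets than among the 9 genes. Cst3 and Shbg are counted for both compounds, whose change between pairs is the same by construction. For Cst3 the NP difference was 0.167 against control and -0.015 against MBP, a change of -0.182, and the MBP difference went from 0.101 to -0.080, which is the same change. For Shbg the NP difference went from 0.071 to -0.022 and the MBP difference from 0.047 to -0.046, a change of -0.093 in each. For Bmp4 the MBP difference went from 0.001 to -0.043, a change of -0.044.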

How the results depend on the processing

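The differences of single genes were small beside some choices. Of 45 differences of the 9 genes in 5 comparisons, 39 kept their sign under median centring, quantile and cyclic loess normalization, and 6 did not: Clu in NP minus control and in NP+MBP minus MBP, Bmp4 in MBP and NP+MBP minus control, Psap in MBP minus control and Igfbp3 in NP minus control. Normalization shifted the median of all sets by at most 0.033. The 1 gene past 1.2-fold in NP+MBP minus control (Igfbp3) became 0 under quantile normalization, cyclic loess or a fold of 1.5. A fold of 1.1 gave 2 genes for NP minus control and 1 in each of MBP minus control, NP+MBP minus NP and NP+MBP minus MBP, where 1.2 gave 0. Without the control array, the median moved from 0.071 to 0.013 for NP and from 0.047 to -0.043 for MBP, and the genes higher with MBP from 6 to 3. The additive model called none of the 9 genes under any setting, with adjusted p of 0.085 to 0.545 for the MBP term of Igfbp3. Over all sets it called for NP 2 with median centring, 13 with no filter, 1 above the 75th percentile and 5 with a signal-dependent prior, and for MBP 43 with median centring, 11 above the 75th percentile and 100 with that prior, against 0 in the main setting for both. The cause of these moves was not tested. The workbook values and the mean of all rows gave the same values for the 9 genes by construction. The workbook repeats the signals and each gene has 1 row, so neither tests the results for these genes.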
